A study of Mus musculus with 26 samples.

Results

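The 9 transcript clusters described here were those listed as most responsive to high-fat diet in mouse liver, out of 31469 clusters in the deposited tables. They were listed by the identifier of 1 transcript each, and every row sharing that transcript's cluster number was summed. They were chosen by their total RNA levels in livers on high-fat diet and in wild-type livers on normal diet, so the difference between those groups in total RNA is given as a description without a test. In the fit of that contrast over 15487 clusters, all 9 stood among the 12 clusters with the smallest p, and the last of them, uc007reo.2, had rank 12. The deposited files and the reference tables used here pair none of these identifiers with a gene symbol, so the clusters are named by identifier and no function is given to any of them.

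Livers of 3 mouse groups were sequenced. The ob/ob group, of strain B6.V-Lepob/J, ate a normal diet. The high-fat diet group (HFD) and the wild-type group (WT) were both of strain C57BL/6J, the second fed a normal diet. RNA held by hnRNPK was immunoprecipitated (IP) from a nuclear and a cytoplasmic liver extract of each group and sequenced beside total liver RNA, with 1 control IgG library per extract from mixed mice. Extracts had already been cleared on IgG beads before the antibody was added, and total RNA was taken from whole liver, so a difference between IP and total RNA contains the fractionation too. The labels give neither the age nor the sex of the mice, nor whether 2 replicates were 2 animals, nor whether IP and total RNA came from the same livers.

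Leptin is the fat-cell hormone that restrains feeding, and ob/ob mice lack it, overeat on ordinary chow and develop a fatty liver. High-fat feeding of C57BL/6J mice gives obesity and a fatty liver with leptin present. The protein hnRNPK binds C-rich RNA through KH domains, moves between nucleus and cytoplasm and acts in splicing, RNA stability and translation.

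Counts of the 2 total RNA libraries of each replicate number were added to make 1 unit, which gave 2 units per mouse group in total RNA, in cytoplasmic IP and in nuclear IP. Total RNA libraries held 25597307 to 41731910 counts, nuclear IP libraries 5336060 to 10581089 and cytoplasmic IP libraries 8834063 to 12068891. The nuclear IgG library held 3116786 counts and the cytoplasmic IgG library only 338469. Levels are counts scaled to library size (CPM) and by TMM, a correction for differences in composition between libraries. Between the 2 libraries of a total RNA unit, the largest ratio for any of the 9 clusters was 1.61, for uc009cqh.2 in ob/ob replicate 1 (3.03 and 4.87 CPM).

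Per unit of transcript length, the 9 clusters covered a wide range of abundance in total RNA. The highest was uc009ghf.1, a transcript of 394 nt, with a mean of 726 TPM (a length-corrected level) over the 6 total RNA units. It was followed by uc007hzh.2 (1520 nt) with 162 TPM and uc009dgb.1 (1702 nt) with 67.6 TPM. Cluster uc009cqh.2 (932 nt) had 15.9 TPM and uc007ytz.1 (3285 nt) 13.9 TPM. The remaining clusters were long and less abundant than these, at percentiles 42.5 to 57.4 among all clusters above 0 TPM. Cluster uc007reo.2 (5090 nt) had 5.09 TPM, uc008pfv.1 (5368 nt) 2.18 TPM, uc007eee.1 (4867 nt) 2.16 TPM and uc009kzk.2 (6972 nt) 1.45 TPM. The ranges over units of uc008pfv.1 (0.93 to 3.56 TPM), uc007eee.1 (0.95 to 4.14 TPM, upper end on high-fat diet) and uc009kzk.2 (0.455 to 3.06 TPM) overlapped. A single isoform was listed for 7 of the 9 clusters, compared with 19320 of all 31469.

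In total RNA, 5 clusters were higher and 4 were lower in HFD livers than in WT livers. Each of the 9 had HFD units on one side of both WT units. Over the 12281 clusters with a mean of at least 1 CPM in total RNA, 41.6% had HFD and WT units that did not overlap, and since this contrast chose the 9 clusters nothing is read from their count. In bulk liver RNA, fewer cells of a type and less RNA per cell cannot be told apart.

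Cluster uc007ytz.1 had the largest positive difference. It had 40.1 and 55.0 CPM in HFD livers, against 8.31 and 7.36 CPM in WT livers, means of 47.6 ± 10.5 and 7.84 ± 0.671 CPM (SD, n = 2 each), a fitted log2 fold change of 2.64. Its ob/ob livers had 8.26 and 11.98 CPM, and 1 of these lay between the WT units. The high level was thus found in both HFD units and in neither ob/ob unit.

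Cluster uc009dgb.1 had 48.0 and 48.3 CPM in ob/ob livers, 91.0 and 84.7 CPM in HFD livers and 28.4 and 23.5 CPM in WT livers. The 3 groups stood in separate ranges, with HFD highest, ob/ob between and WT lowest. The log2 fold change over WT was 0.96 in ob/ob and 1.79 in HFD.

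Cluster uc009kzk.2 had 1.57 and 1.67 CPM in ob/ob livers, 9.78 and 10.3 CPM in HFD livers and 2.69 and 3.74 CPM in WT livers. It was high in HFD and lowest in ob/ob, with no overlap between any groups. Its log2 fold change over WT was -0.91 in ob/ob and 1.69 in HFD, opposite in sign. Cluster uc007reo.2 had the same order, with 7.66 and 7.21 CPM in ob/ob, 20.7 and 18.8 CPM in HFD and 11.1 and 10.9 CPM in WT. Its log2 fold changes over WT were -0.49 in ob/ob and 0.88 in HFD, the smallest HFD difference of the 9.

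Cluster uc007eee.1 had 3.01 and 3.29 CPM in ob/ob livers, 7.57 and 8.73 CPM in HFD livers and 2.91 and 2.62 CPM in WT livers. The ob/ob units lay just above the WT units (log2 fold change 0.26), while HFD lay far above both (1.59). This cluster had 3 isoforms, and their shares of its total RNA counts differed between groups. The isoform uc007eek.1 (4055 nt) took 31.3% and 41.1% of the cluster's counts in ob/ob, 30.4% and 42.7% in HFD and 8.52% and 0% in WT. Both ob/ob and both HFD units were above both WT units in this share, which is the authors' estimated division of reads among overlapping transcripts. In IP, where the cluster had 1 to 26 reads per library, the share ran between 0% and 100% and did not show this pattern, with 0% in both HFD cytoplasmic IP libraries and 100% in both HFD nuclear IP libraries and in WT nuclear IP replicate 2. In uc009dgb.1, the other cluster with several isoforms, the listed transcript took between 93.4% and 100% of the counts in every total RNA unit.

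Among the clusters that were lower in HFD livers, uc009ghf.1 had the largest difference. It had 141 and 179 CPM in ob/ob livers, 32.8 and 31.4 CPM in HFD livers and 203 and 129 CPM in WT livers. The HFD units were near each other and far below all others, while ob/ob and WT units overlapped. Mean levels were 160 ± 26.4 CPM in ob/ob, 32.1 ± 0.935 CPM in HFD and 166 ± 52.3 CPM in WT (SD, n = 2 each), and the log2 fold change over WT was 0.02 in ob/ob and -2.34 in HFD.

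Cluster uc007hzh.2 had 199 and 185 CPM in ob/ob livers, 26.2 and 40.3 CPM in HFD livers and 131 and 122 CPM in WT livers. The 3 groups did not overlap, and the obese groups lay on opposite sides of WT, ob/ob above (log2 fold change 0.68) and HFD below (-1.89). Between ob/ob and HFD the log2 fold change was 2.57.

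Cluster uc008pfv.1 had 4.84 and 5.61 CPM in ob/ob livers, 2.37 and 3.15 CPM in HFD livers and 9.66 and 9.90 CPM in WT livers. Both obese groups were below WT, with log2 fold changes of -0.83 in ob/ob and -1.79 in HFD. Cluster uc009cqh.2 had 3.97 and 4.22 CPM in ob/ob, 5.14 and 4.90 CPM in HFD and 11.3 and 13.2 CPM in WT. It was the 1 cluster of the 9 whose difference from WT was larger in ob/ob (-1.50) than in HFD (-1.25).

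**Figure D1:**
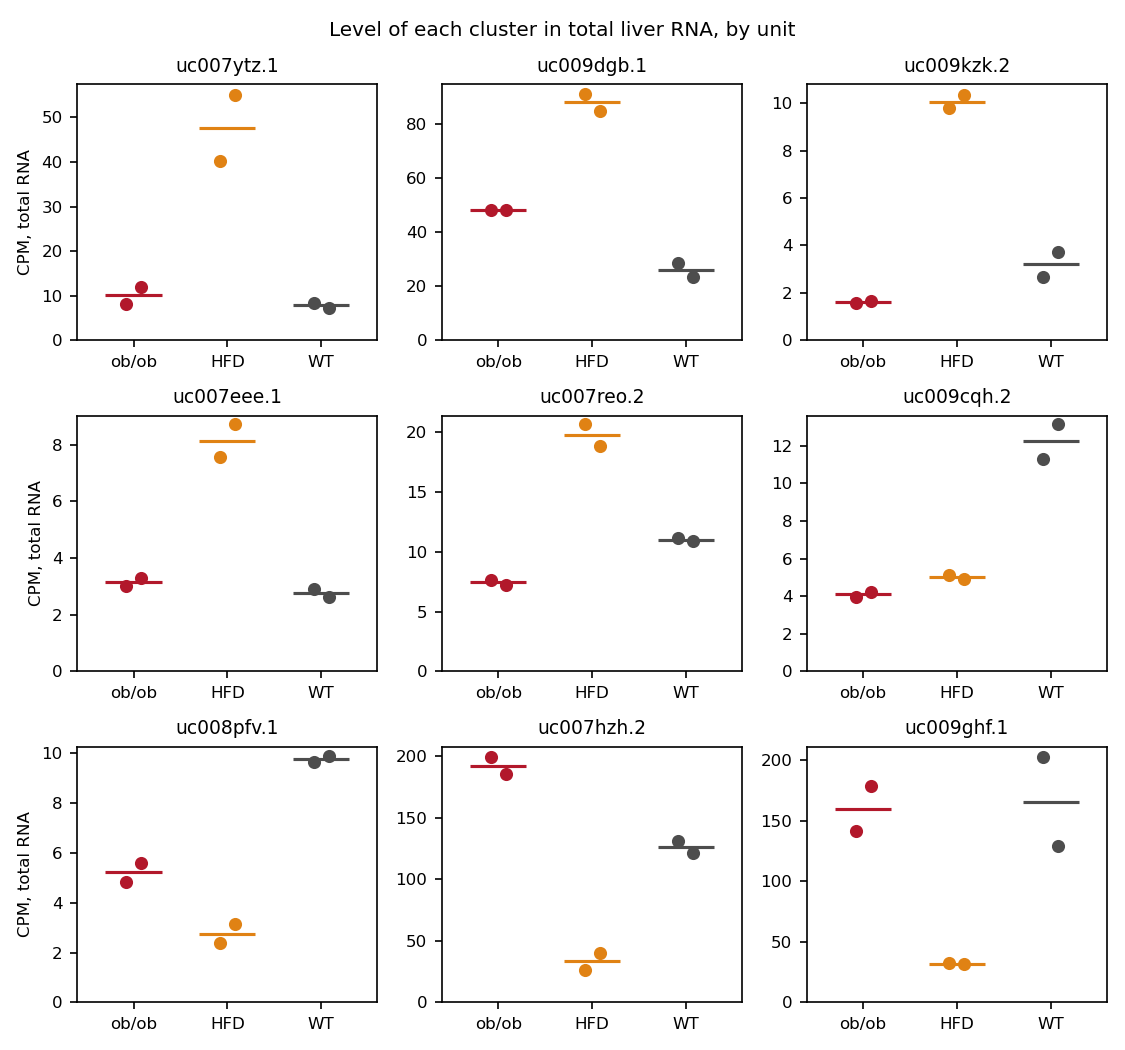
Level of each cluster in total liver RNA, in CPM on a linear axis from 0, with a point for each of the 2 units of ob/ob, HFD and WT and a bar at the mean. HFD units lie apart from both WT units in all 9 panels, and uc007hzh.2, uc007reo.2 and uc009kzk.2 have ob/ob and HFD on opposite sides of WT.

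Set against WT, the 2 obese groups thus stood on the same side for 4 of the 9 clusters (uc009dgb.1 and uc007eee.1 higher, uc008pfv.1 and uc009cqh.2 lower) and on opposite sides for 3 (uc007hzh.2, uc007reo.2 and uc009kzk.2). For uc007ytz.1 and uc009ghf.1, ob/ob and WT units overlapped. The placing of uc007eee.1 rests on a small ob/ob difference (log2 fold change 0.26). Its single libraries overlapped between WT (up to 3.15 CPM) and ob/ob (from 3.07 CPM). Units of ob/ob and WT did not overlap in 7 of 9 clusters, a share to be read beside 57.3% of all clusters with a mean of at least 1 CPM. Units of ob/ob and HFD did not overlap in 9 of 9, beside 64.7% of those clusters. Of the 9, 3 were higher in ob/ob (uc007hzh.2, uc009ghf.1 and uc008pfv.1). Before summing, single libraries of uc009cqh.2 did overlap between ob/ob (up to 4.87 CPM) and HFD (from 4.63 CPM). Both differences from WT use the same WT units, and the difference between ob/ob and HFD uses the HFD units that chose the clusters, so these counts carry no test.

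No cluster in the whole table passed an adjusted p of 0.05 between HFD and WT total RNA by edgeR's quasi-likelihood test (0.0%). Of 15487 clusters, 1527 had an unadjusted p below 0.05, and DESeq2 called 323. Without WT replicate 1 the edgeR count was 1175. For the 9 clusters themselves the sign of the HFD difference was kept under all 10 other settings, and the largest shift was in uc009ghf.1, whose log2 fold change ran between -2.66 and -1.94. Their HFD units lay on one side of both WT units, so the kept sign was largely fixed in advance and carries no support.

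The IP libraries took no part in choosing the 9 clusters, and the effect of the mouse group was tested there. The labels do not say whether they came from the same livers as total RNA. If they did, liver differences behind the choice would recur in IP, and the tests would not be independent of it. In cytoplasmic IP all 9 were tested, and 1 passed between HFD and WT, beside 0.0588% of the 11901 clusters tested. In nuclear IP 8 of the 9 passed the filter on low counts, and 2 of those passed the test, beside 0.642% of 11531. The filter left out uc007eee.1, which had between 0.30 and 2.64 CPM in nuclear IP. HFD and WT units did not overlap in 8 of 9 clusters in cytoplasmic IP, beside 47.8% of clusters with a mean of at least 1 CPM, and in 6 of 9 in nuclear IP, beside 51.8%. The p-values measure the spread between 2 libraries per group, which may be technical.

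Cluster uc007ytz.1 rose in both extracts of HFD livers. In nuclear IP it had 94.0 and 82.1 CPM in HFD, against 11.8 and 11.4 CPM in WT, and the log2 fold change was 2.98 ± 0.26 (SE; adjusted p = 0.0013 by edgeR). In cytoplasmic IP it had 52.5 and 63.8 CPM in HFD, against 6.61 and 8.95 CPM in WT, and the log2 fold change was 2.85 ± 0.24 (adjusted p = 0.0043 by edgeR). The 4 HFD libraries lay above all 4 WT libraries of their extracts, and the call held under every other setting tried in both extracts. In ob/ob the cluster had 11.8 and 20.9 CPM in nuclear IP and 8.69 and 10.5 CPM in cytoplasmic IP. These overlapped the WT values in each extract, with log2 fold changes over WT of 0.55 (edgeR adjusted p = 0.23) and 0.24 (0.58).

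Cluster uc008pfv.1 fell in nuclear IP of both obese groups. It had 0.89 and 2.34 CPM in ob/ob nuclear IP, 0.82 and 1.22 CPM in HFD and 11.1 and 8.54 CPM in WT. These were few reads in the obese groups, 5 and 18 in ob/ob and 5 and 4 in HFD, against 123 and 72 in WT. The log2 fold change over WT was -2.50 ± 0.46 in ob/ob (edgeR adjusted p = 0.015) and -3.25 ± 0.53 in HFD (0.035). Neither call held without one of the obese libraries, with edgeR adjusted p of 0.060 and 0.055 without ob/ob replicate 1 and 2, and 0.26 and 0.25 without HFD replicate 1 and 2. In cytoplasmic IP it had 1.72 and 2.64 CPM in ob/ob, 3.00 and 0.64 CPM in HFD and 10.4 and 5.12 CPM in WT. The obese libraries were all below the WT libraries, and the differences did not pass (edgeR adjusted p = 0.089 for ob/ob and 0.17 for HFD). Other settings called the ob/ob difference in 5 of 10 cases, DESeq2 among them (adjusted p = 0.044), and the HFD difference in 2 of 9.

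Cluster uc009dgb.1 rose in ob/ob livers in both extracts. In cytoplasmic IP it had 217 and 203 CPM in ob/ob, 143 and 192 CPM in HFD and 18.5 and 68.2 CPM in WT. Nuclear IP held 85.4 and 69.8 CPM in ob/ob, 73.5 and 78.5 CPM in HFD and 9.99 and 34.2 CPM in WT. All obese libraries were above all WT libraries, and the 2 WT libraries of an extract differed from each other by a larger ratio than the obese ones did. The log2 fold change of ob/ob over WT was 2.21 ± 0.49 in cytoplasmic IP (edgeR adjusted p = 0.039) and 1.86 ± 0.43 in nuclear IP (0.032). Its size depended on the WT library used, with 1.56 and 3.44 in cytoplasmic IP and 1.21 and 3.01 in nuclear IP without WT replicate 1 and 2. Without ob/ob replicate 1 or 2 these calls were lost, with edgeR adjusted p of 0.11 and 0.19 in cytoplasmic IP and 0.10 and 0.15 in nuclear IP, and DESeq2 gave 0.078 in nuclear IP. The HFD differences were of like size, 1.90 ± 0.48 in cytoplasmic IP and 1.85 ± 0.43 in nuclear IP, and did not pass (edgeR adjusted p = 0.15 and 0.076), while 4 of 10 other settings called them in cytoplasmic IP and 5 of 10 in nuclear IP. Without WT replicate 1 or 2 they were 1.24 and 3.12 in cytoplasmic IP and 1.19 and 2.99 in nuclear IP, and passed.

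Cluster uc007hzh.2 kept the opposite placing of the obese groups in each extract. It had 37.9 and 68.6 CPM in ob/ob cytoplasmic IP, 4.49 and 8.12 CPM in HFD and 22.4 and 31.7 CPM in WT. Its nuclear IP levels were 33.3 and 48.9 CPM in ob/ob, 9.56 and 3.04 CPM in HFD and 18.5 and 23.0 CPM in WT. No 2 groups overlapped in either extract. Against WT the log2 fold change was 0.92 ± 0.34 in ob/ob and -2.18 ± 0.39 in HFD in cytoplasmic IP, and 1.03 ± 0.34 and -1.55 ± 0.40 in nuclear IP. None of these passed the edgeR test (adjusted p between 0.097 and 0.14), while 6 of 10 other settings called the HFD difference in cytoplasmic IP and 4 of 10 in nuclear IP.

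Cluster uc009ghf.1, with the largest negative HFD difference in total RNA, was too variable in IP for a direction to be given. It had 261 and 615 CPM in ob/ob cytoplasmic IP, 931 and 246 CPM in HFD and 1002 and 326 CPM in WT. Its nuclear IP levels were 46.0 and 62.7 CPM in ob/ob, 34.5 and 144 CPM in HFD and 220 and 38.5 CPM in WT. The groups overlapped in each extract, and the 2 HFD libraries, like the 2 WT libraries, differed from each other by more than the group means did. The log2 fold change of HFD over WT was -0.23 ± 0.69 in cytoplasmic IP and -0.51 ± 0.71 in nuclear IP (edgeR adjusted p = 0.90 and 0.74). Leaving out 1 library moved it between -1.47 (without HFD replicate 1) and 0.80 (without WT replicate 1) in cytoplasmic IP, and between -1.85 (without HFD replicate 2) and 1.22 (without WT replicate 1) in nuclear IP. By library size only the nuclear difference was -1.17 and passed (edgeR adjusted p = 0.017).

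The other 4 clusters passed no test between an obese group and WT in either extract. Cluster uc009kzk.2 had 1.81 and 1.90 CPM in ob/ob cytoplasmic IP, 5.37 and 7.64 CPM in HFD and 3.07 and 4.99 CPM in WT, the same order of groups as in total RNA and with no overlap. In nuclear IP it had 2.32 and 1.69 CPM in ob/ob, 3.13 and 3.95 CPM in HFD and 0.36 and 2.73 CPM in WT, where ob/ob and WT overlapped. Cluster uc007reo.2 had 4.07 and 1.58 CPM in ob/ob cytoplasmic IP, 7.36 and 6.53 CPM in HFD and 4.49 and 3.96 CPM in WT. Its nuclear IP levels were 7.13 and 3.24 CPM in ob/ob, 9.40 and 14.9 CPM in HFD and 5.76 and 7.35 CPM in WT, so HFD lay above WT in both extracts while ob/ob overlapped WT.

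Cluster uc009cqh.2 had 3.53 and 2.74 CPM in ob/ob cytoplasmic IP, 3.00 and 2.39 CPM in HFD and 5.43 and 5.24 CPM in WT. Both obese groups were below WT there, with log2 fold changes of -0.83 ± 0.32 in ob/ob and -1.03 ± 0.34 in HFD (edgeR adjusted p = 0.15 and 0.21). In nuclear IP it had 0.53 and 0.65 CPM in ob/ob, 0.99 and 2.43 CPM in HFD and 2.25 and 0.95 CPM in WT, and the HFD and WT units overlapped. Cluster uc007eee.1 had 0.81 and 1.27 CPM in ob/ob cytoplasmic IP, 1.75 and 4.14 CPM in HFD and 1.18 and 1.66 CPM in WT. Its HFD libraries were above the WT libraries by 0.97 ± 0.57 on the log2 scale (edgeR adjusted p = 0.42), and it had between 9 and 26 reads per cytoplasmic IP library.

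**Figure D2:**
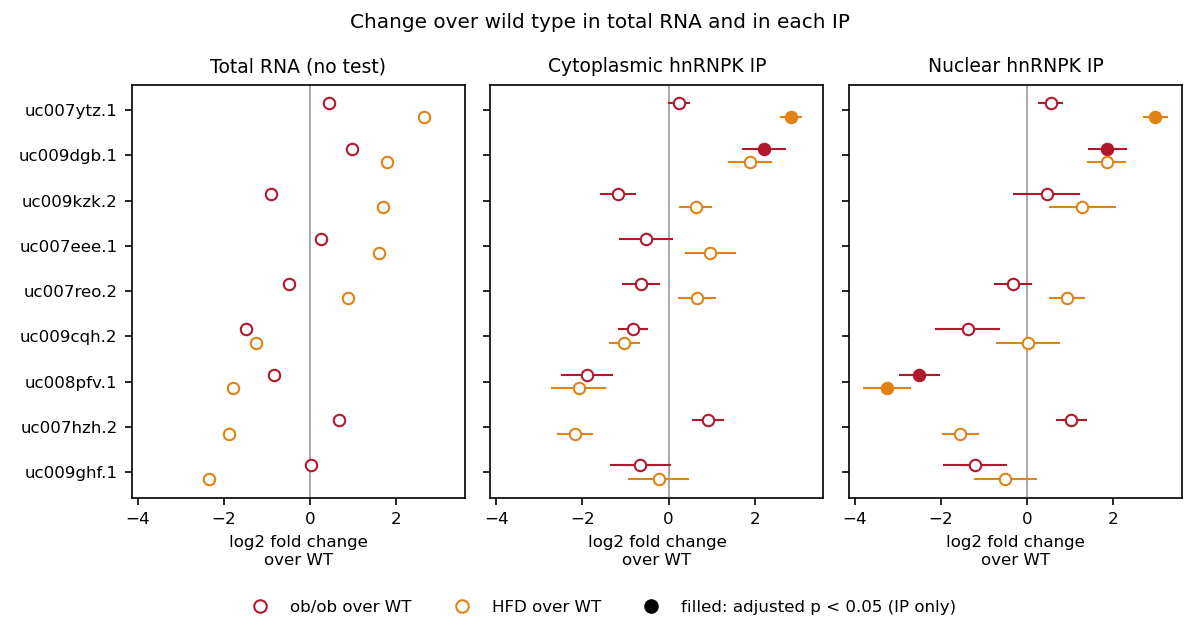
Fitted log2 fold change of ob/ob over WT and of HFD over WT for the 9 clusters in total RNA, cytoplasmic IP and nuclear IP, with bars of 1 SE in the IP panels. Filled points passed the edgeR test in IP, which were uc007ytz.1 in HFD, uc009dgb.1 in ob/ob and, in nuclear IP, uc008pfv.1 in both, and uc007eee.1 was not tested in nuclear IP.

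In counts, 1 of 9 clusters passed between ob/ob and WT in cytoplasmic IP, beside 5.59% of all clusters tested, and 2 of 8 in nuclear IP, beside 6.37%. The median absolute log2 fold change of HFD over WT was 1.03 for the 9 clusters in cytoplasmic IP, compared with 0.30 over all clusters tested, and 1.42 for the 8 tested in nuclear IP, compared with 0.34. The 9 were chosen for their total RNA difference. No such median, and no share passing between HFD and WT, was taken over clusters with a like difference. The sign of the HFD difference was the same in cytoplasmic IP and in total RNA for 9 of the 9 clusters, and for 55.2% of all 11829 clusters tested in both. Among the 377 clusters whose total RNA difference was at least as large as that of uc007reo.2, the share was 93.1%. In nuclear IP the sign was the same for 7 of the 8 clusters tested, uc009cqh.2 being the exception with a log2 fold change of 0.02, against 61.7% of all clusters and 92.2% of the 360 with a difference of that size. A shared sign with total RNA was therefore about as frequent over all clusters with a total RNA difference of this size, which include those of the 9 that were tested.

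The direct comparison of ob/ob with HFD within each extract was added after the values had been seen. Between these groups 2 of 9 clusters passed in cytoplasmic IP, beside 0.992% of all tested, and 2 of 8 in nuclear IP, beside 1.21%. They were uc007hzh.2 and uc007ytz.1 in both extracts. Cluster uc007hzh.2 was higher in ob/ob, with log2 fold changes of 3.09 ± 0.39 in cytoplasmic IP (edgeR adjusted p = 0.013) and 2.58 ± 0.40 in nuclear IP (0.015). Cluster uc007ytz.1 was lower in ob/ob, with log2 fold changes of -2.61 ± 0.23 in cytoplasmic IP (edgeR adjusted p = 0.0017) and -2.43 ± 0.26 in nuclear IP (0.0016). The calls of uc007ytz.1 held under all other settings tried. Those of uc007hzh.2 were lost without ob/ob replicate 2 (edgeR adjusted p = 0.056 in cytoplasmic and 0.16 in nuclear IP), without HFD replicate 1 in cytoplasmic IP (0.11) and without HFD replicate 2 in nuclear IP (0.075). Cluster uc009kzk.2 was lower in ob/ob cytoplasmic IP by a log2 fold change of -1.81 ± 0.39, which did not pass (edgeR adjusted p = 0.077).

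No cluster, among the 9 or among the 13516 tested in all, differed between the extracts in the effect of either obese group by the edgeR interaction test (0.0%). An unadjusted p below 0.05 was found in 1840 of them for HFD and 1418 for ob/ob, and DESeq2 called 232 and 127. None of the 9 clusters had an unadjusted p below 0.05 in either interaction.

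The next comparison asked which of the 9 clusters were held with hnRNPK beyond their level in total RNA, averaged over the 3 mouse groups. The total RNA units that chose the clusters enter it, the HFD and WT units with equal weight. All 9 had among the smallest p in total RNA, so their spread there may be small by choice. The p-values of IP over total RNA are thus not independent of that choice. In nuclear IP 7 of 9 clusters passed, beside 74.7% of the 13516 clusters tested. Of the 9, 1 was higher and 6 were lower than in total RNA, beside 32.2% and 42.5% of all. In cytoplasmic IP 7 of 9 passed, 2 higher and 5 lower, beside 77.2% of all clusters, 36.0% higher and 41.2% lower. The shares that passed are close to the background.

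The clusters above total RNA were 1 in nuclear IP and 2 in cytoplasmic IP. Cluster uc007ytz.1 was higher in nuclear IP, by 0.73 ± 0.15 on the log2 scale (edgeR adjusted p = 0.00038), and near total RNA in cytoplasmic IP with 0.07 ± 0.15 (0.68). With scaling by library size only, its nuclear difference was 0.37 and no longer passed (edgeR adjusted p = 0.070), and its cytoplasmic difference was -0.45 (0.029). Cluster uc009dgb.1 was higher in cytoplasmic IP by 1.27 ± 0.27 on the log2 scale (edgeR adjusted p = 0.00065), and 0.08 ± 0.28 in nuclear IP (0.80). Cluster uc009ghf.1 had the largest value in cytoplasmic IP, 2.56 ± 0.48 (edgeR adjusted p = 0.00019), and -0.15 ± 0.46 in nuclear IP (0.78). The ratio of its mean cytoplasmic IP level to its mean total RNA level was 2.74 in ob/ob, 18.3 in HFD and 4.00 in WT. The HFD ratio contains the low HFD total RNA level for which the cluster was chosen, and is given as a description.

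A group of 5 clusters was below total RNA in both extracts. Cluster uc007hzh.2 had log2 fold changes of -2.36 ± 0.22 in nuclear IP (edgeR adjusted p = 1.8e-07) and -2.16 ± 0.22 in cytoplasmic IP (3.5e-07). Its mean IP level was below its mean total RNA level in each mouse group, with nuclear ratios of 0.21 in ob/ob, 0.19 in HFD and 0.16 in WT. Cluster uc007eee.1 had -1.99 ± 0.31 and -1.35 ± 0.28 in nuclear and cytoplasmic IP (edgeR adjusted p = 3.7e-05 and 0.00047). Cluster uc009cqh.2 had -2.44 ± 0.22 in nuclear IP (edgeR adjusted p = 1.2e-07) and -0.82 ± 0.18 in cytoplasmic IP (0.00070).

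Cluster uc007reo.2 was lower by -0.68 ± 0.20 in nuclear IP (edgeR adjusted p = 0.0062) and -1.42 ± 0.20 in cytoplasmic IP (1.4e-05). Cluster uc008pfv.1 was lower by -1.03 ± 0.31 in nuclear IP (edgeR adjusted p = 0.0068) and -0.71 ± 0.26 in cytoplasmic IP (0.024), the second lost on leaving out any of 5 units in turn (0.059 to 0.12). They were ob/ob cytoplasmic IP replicate 1, ob/ob total RNA replicate 2, HFD cytoplasmic IP replicate 2, HFD total RNA replicate 2 and WT cytoplasmic IP replicate 2. The value was -0.43 without HFD cytoplasmic IP replicate 2 and -1.24 without replicate 1. By mouse group, the mean nuclear IP level of uc008pfv.1 over its mean total RNA level was 0.31 in ob/ob, 0.37 in HFD and 1.00 in WT. Its WT nuclear IP was thus level with total RNA. The cytoplasmic ratios were 0.42, 0.66 and 0.79. HFD and WT ratios contain the total RNA levels for which the cluster was chosen. Cluster uc009kzk.2 was lower by -0.79 ± 0.30 in nuclear IP (edgeR adjusted p = 0.026) and stood at -0.04 ± 0.27 in cytoplasmic IP (0.90). Its nuclear ratio of means was 1.235 in ob/ob, 0.352 in HFD and 0.480 in WT, so ob/ob stood above total RNA. The HFD ratio contains the high HFD total RNA level for which uc009kzk.2 was chosen. Its nuclear call was lost on leaving out any of 9 of the 12 units compared (0.051 to 0.082), among them WT nuclear IP replicate 1, without which the log2 fold change was -0.41; without WT nuclear IP replicate 2 it was -1.47.

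**Figure D3:**
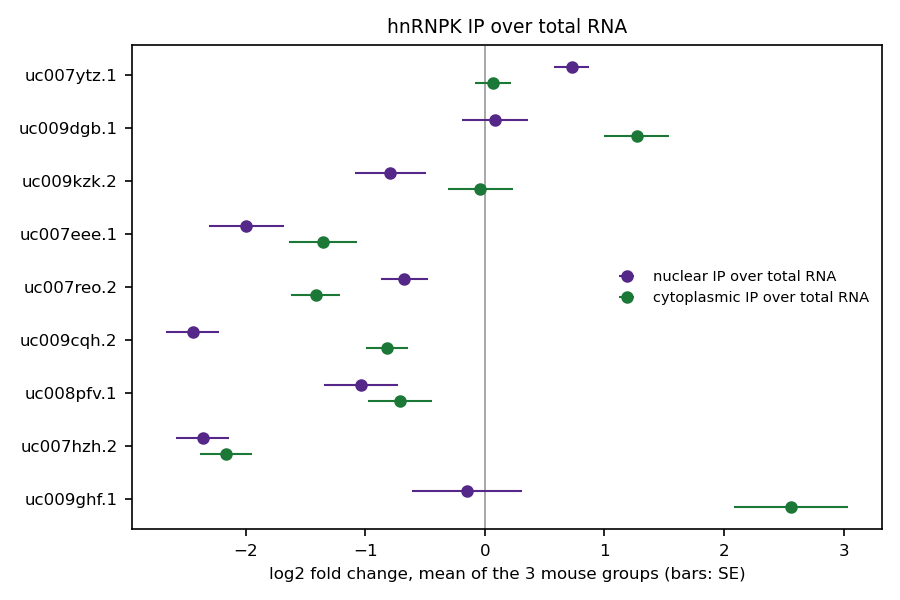
Fitted log2 fold change of nuclear IP and of cytoplasmic IP over total RNA for the 9 clusters, averaged over the 3 mouse groups, with bars of 1 SE. Cluster uc009ghf.1 lies farthest to the right in cytoplasmic IP at 2.56, and uc007hzh.2 lies below -2 in both extracts.

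Between the extracts, 5 of 9 clusters passed, beside 64.6% of all clusters tested. Of these, 2 were higher and 3 lower in nuclear IP, beside 31.0% and 33.6% of all. Higher in nuclear IP were uc007reo.2, by 0.74 ± 0.22 on the log2 scale (edgeR adjusted p = 0.0088), and uc007ytz.1, by 0.66 ± 0.16 (0.0019). Lower in nuclear IP were uc009ghf.1 with -2.71 ± 0.49 (edgeR adjusted p = 0.00018), uc009cqh.2 with -1.63 ± 0.25 (3.6e-05) and uc009dgb.1 with -1.19 ± 0.28 (0.0018). Scaling by library size only kept these 5 directions and calls, and without WT cytoplasmic IP replicate 2 the value of uc009dgb.1 was -0.78. Cluster uc009kzk.2 had -0.75 ± 0.32, just short of the threshold (edgeR adjusted p = 0.054), and 5 of 17 other settings called it, DESeq2 among them (adjusted p = 0.040).

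Each IgG library was 1 library from mixed mice, so IP and IgG are set side by side without a test, and the intervals cover counting error only. These placings depend on TMM, whose factors were 1.36 and 1.37 in cytoplasmic and nuclear IgG. In HFD replicate 2 they were 0.656 in cytoplasmic and 0.616 in nuclear IP. Cluster uc009ghf.1 had between 246 and 1002 CPM in cytoplasmic IP and exceeded cytoplasmic IgG in 6 of 6 libraries, IgG having 148 CPM (exact 95% interval 115 to 187). In nuclear IP it exceeded IgG, at 131 CPM (121 to 143), in 2 of 6. By library size only, its HFD replicate 2 lay below IgG in both extracts (cytoplasmic 162 against 201 CPM, nuclear 88.8 against 180 CPM). Cluster uc009dgb.1 exceeded IgG in 5 of 6 nuclear and 5 of 6 cytoplasmic IP libraries, with IgG at 26.2 CPM (21.6 to 31.5) and 56.4 CPM (36.8 to 82.6). The exceptions were WT replicate 1 in both extracts. By library size only, WT replicate 2 was below IgG too (cytoplasmic 56.5 against 76.8 CPM, nuclear 32.6 against 35.9 CPM).

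Cluster uc007ytz.1 exceeded IgG only in the 2 HFD libraries of each extract, where IgG had 41.0 CPM (35.1 to 47.5) in the nuclear and 32.5 CPM (18.2 to 53.7) in the cytoplasmic library. The other 4 libraries of each extract lay below it. By library size only, HFD replicate 2 lay below IgG too (nuclear 50.6 against 56.1 CPM, cytoplasmic 41.9 against 44.3 CPM). Cluster uc007hzh.2 exceeded IgG in ob/ob replicate 2 of each extract alone, with IgG at 44.0 CPM (37.9 to 50.8) and 45.6 CPM (28.2 to 69.6). By library size only, that replicate lay below IgG too (nuclear 52.2 against 60.3 CPM, cytoplasmic 58.6 against 62.0 CPM). The mix of mice in IgG was not given, so the IgG level of a cluster that differs between mouse groups cannot be set against one group.

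Cluster uc007reo.2 exceeded nuclear IgG, at 5.38 CPM (3.41 to 8.08), in 5 of 6 libraries. Cluster uc008pfv.1 exceeded nuclear IgG, at 4.21 CPM (2.50 to 6.66), in 2 of 6, both of them WT. Neither cluster had a count in cytoplasmic IgG, where the floor of 3 counts is 6.51 CPM and the exact 95% interval of a count of 0 reaches 8.0 CPM. Cluster uc009kzk.2 exceeded nuclear IgG, at 2.11 CPM (0.963 to 4.00), in 4 of 6 libraries and cytoplasmic IgG, at 8.68 CPM (2.36 to 22.2), in none of 6. Cluster uc009cqh.2 did so in 2 of 6 and none of 6, and uc007eee.1 in 1 of 6 in each extract, with cytoplasmic IgG counts of 3 and 1. By library size only, nuclear IgG of uc007reo.2 was 7.38 CPM, and all its ob/ob and WT nuclear IP libraries were below it. Nuclear IgG of uc009kzk.2 was then 2.89 CPM, above all its nuclear IP libraries. HFD replicate 2 of uc009cqh.2 in nuclear IP and of uc007eee.1 in cytoplasmic IP also fell below IgG.

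**Figure D4:**
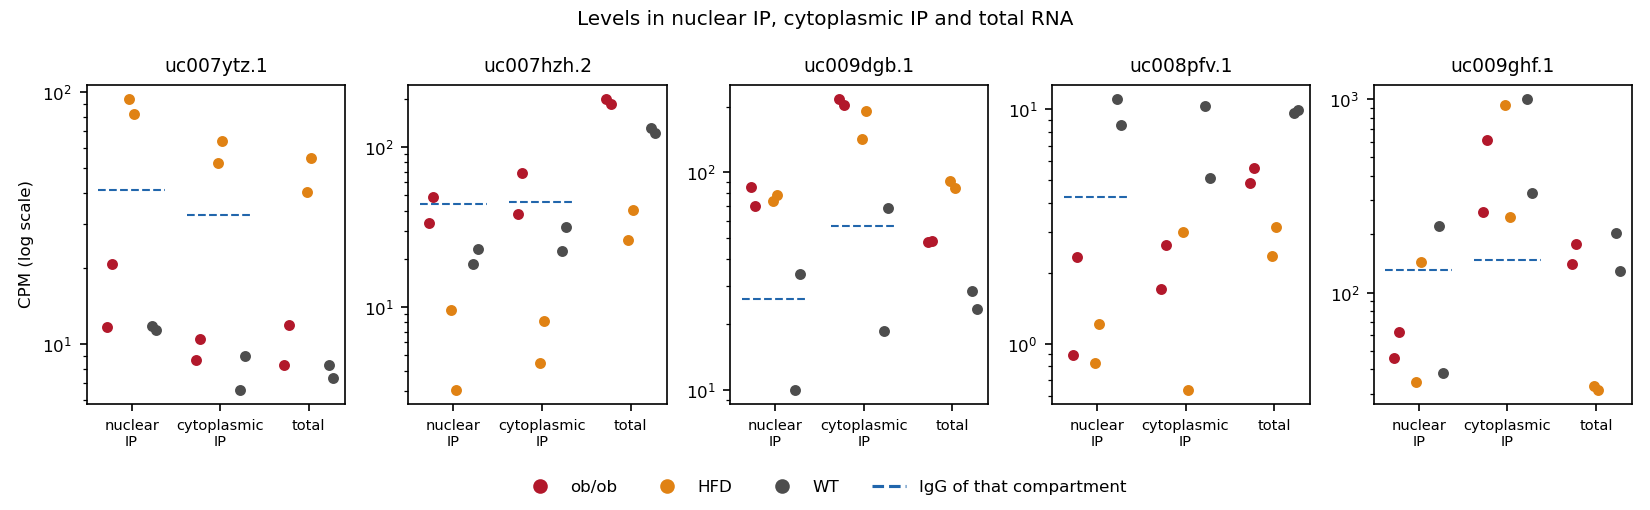
Levels of 5 of the clusters in CPM on log axes in nuclear IP, cytoplasmic IP and total RNA, with a point per unit coloured by mouse group (ob/ob, HFD, WT from left to right) and a dashed line at the IgG library of that extract. The HFD points of uc007ytz.1 lie above the IgG line in both extracts, and the points of uc009ghf.1 in cytoplasmic IP lie above it in all 3 mouse groups. Levels are scaled by TMM, on which these placings depend in part.

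Cluster numbers ran in order through the tables, and 8 of the 9 clusters had a cluster 1 number away with a mean of at least 1 CPM in total RNA, 11 such clusters in all. Their absolute log2 fold changes of HFD over WT were between 0.045 and 1.96, and 10 of the 11 were below 0.5. The exception was uc009cqg.2 (986 nt), 1 number below uc009cqh.2. It had 0.963 and 1.72 CPM in ob/ob livers, 4.65 and 3.65 CPM in HFD livers and 14.1 and 19.0 CPM in WT livers. It stood below WT in both obese groups, as uc009cqh.2 did, and its log2 fold change over WT was -3.54 in ob/ob and -1.96 in HFD. Whether the 2 share sequence was not tested, and RSEM divides reads among transcripts that do.

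Over the 18 units, with 10722 clusters of at least 1 in mean log2 CPM compared, those most like uc007ytz.1 were uc011zcf.1 (Pearson's r of log2 CPM 0.90) and uc008pdm.2 (0.82). Cluster uc011zcf.1 had 3.73 and 5.53 CPM in ob/ob total RNA, 26.4 and 39.1 CPM in HFD and 4.58 and 2.18 CPM in WT, high in HFD alone like uc007ytz.1. Those most like uc009ghf.1 were uc009bgz.1 (r 0.90) and uc007mzp.1 (0.87). Cluster uc009bgz.1 had 2.66 and 3.02 CPM in ob/ob total RNA, 2.1 and 2.05 CPM in HFD and 2.93 and 3.11 CPM in WT, lowest in HFD by a small margin. Cluster uc007mzp.1 had 23.5 and 29.0 CPM in ob/ob total RNA, 25.2 and 21.9 CPM in HFD and 28.8 and 19.4 CPM in WT, and its groups overlapped there. The 18 points share extracts and mouse groups, and these coefficients describe likeness only.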

How the data were processed

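RNA of mouse liver was sequenced in 26 libraries. The deposited tables hold 1 row per transcript (59121). The expected counts and the TPM values were estimated by the authors with RSEM 1.2.8 before deposit, per the file headers and the submitters' processing notes, and stand beside the transcript length in nucleotides. Those notes also name bcl2fastq, TopHat2 2.0.10, Bowtie2 2.1.0, SAMtools and build mm10, with no role or order. A TruSeq RNA kit was used, as the labels' protocols state. No source used here says whether it kept strand, so antisense and overlapping transcripts are uncertain. The molecule label of the IgG libraries reads as hnRNPK-bound, and their titles were followed.

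The transcripts' expected counts were added up for each cluster, then rounded. The 2 total RNA libraries of a replicate number were summed, although the labels do not call them runs of 1 RNA. Tests used edgeR 4.0.16 (glmQLFit, glmQLFTest) in R 4.3.3 with limma 3.58.1, TMM, filterByExpr and Benjamini-Hochberg adjustment over all clusters, threshold 0.05. Comparisons within total RNA or 1 extract used its 6 units, and those across kinds of RNA used 18 units. The SE is the absolute log2 fold change over the square root of F. DESeq2 1.42.0 was an alternative. The fits were first run on simulated data in which 200 clusters had known changes. TPM served only to compare levels between clusters.

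The 9 clusters and all lists were chosen with earlier results of these data known. The rule for named clusters took all 9, the 2 clusters most like the highest and the lowest of them, and neighbours 1 cluster number away. Lists of cell type markers and of lipid and sterol genes were planned and not analysed here, because 0 identifiers matched a symbol.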

Additional observations from a re-analysis of the deposited data

Results flagged for a closer look

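Values of 2 kinds were singled out. The first is a library far from the others of its extract. Cluster uc009kzk.2 had 0.36 CPM (4 reads) in WT nuclear IP replicate 1, far below the other 5 nuclear IP libraries (13 to 23 reads). The gap to the nearest was 0.637 of the whole range on the log2 scale. Counts this low leave room for a large counting error. The 6 libraries span the 3 mouse groups and are not replicates of 1 group. In all 18 such checks were made, and how often chance would single out a library was not estimated. Without this library the difference of uc009kzk.2 between nuclear IP and total RNA was -0.41 on the log2 scale and did not pass (edgeR adjusted p = 0.082).

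The second is a direct difference between the obese groups, in a comparison chosen after the values were seen. Cluster uc007hzh.2 differed between ob/ob and HFD by a log2 fold change of 3.09 in cytoplasmic IP (edgeR adjusted p = 0.013) and 2.58 in nuclear IP (0.015), higher in 2 of 2 ob/ob libraries of each extract. Cluster uc007ytz.1 differed by -2.61 in cytoplasmic IP (edgeR adjusted p = 0.0017) and -2.43 in nuclear IP (0.0016), lower in 2 of 2 ob/ob libraries of each extract. The same clusters differed between these groups in total RNA, which the choice of clusters used.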

How the results depend on the processing

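Of the tested values of single clusters under other settings, 1133 kept their side of the threshold, 28 lost a call, 48 gained one and 1 passed with the opposite sign, uc007ytz.1 in cytoplasmic IP over total RNA, -0.45 by library size only compared with 0.07. Of the 1133, 67 changed sign without passing in either setting, 18 of them of uc009ghf.1. Counts over all clusters depended on the setting far more. Between HFD and WT, the count was 7 in cytoplasmic IP (4 to 546 on leaving out 1 unit), 199 by library size only (56 higher, 143 lower), 709 with no filter, 273 by DESeq2 and 250 in the fit on all 18 units. In nuclear IP it was 74 (6 to 380), and 883 (62 higher, 821 lower), 850, 331 and 726 under the same settings. Between ob/ob and WT it was 665 in cytoplasmic IP (61 to 1216) and 735 in nuclear IP (62 to 858), with 1854 and 1683 with no filter and 1726 and 1855 on 18 units; without TMM the cytoplasmic split was 437 higher and 235 lower. Between ob/ob and HFD it was 118 in cytoplasmic IP (21 to 61) and 139 in nuclear IP (24 to 56), with 455 (333 higher, 122 lower) and 797 (713 higher, 84 lower) by library size only, 940 and 746 with no filter, 352 and 332 by DESeq2 and 482 and 406 on 18 units. In total RNA it was 0 between HFD and WT (0 to 1175), 323 by DESeq2 and 2001 with total RNA libraries unsummed. Between ob/ob and WT it was 244 (0 to 3221), 91 by library size only, 387 with no filter, 2101 by DESeq2 and 5777 unsummed. Between ob/ob and HFD it was 76 (0 to 12), and 49, 144, 1433 and 4885 under those settings. Counts for cytoplasmic IP over total RNA (10430, 10053 to 10461), nuclear IP over total RNA (10094, 9742 to 10130) and nuclear over cytoplasmic IP (8735, 8298 to 8634) moved little; by library size only they split into 2920 higher and 7321 lower, 2855 and 6987, and 4542 and 3645. The interaction counts were 0 (0 to 9) for HFD and 0 (0 to 14) for ob/ob, with 232 and 127 by DESeq2 and, for ob/ob, 6 with no filter. Scaling by library size only moved the median log2 fold change of all clusters to -0.46 between HFD and WT in nuclear IP, -0.62 for cytoplasmic IP over total RNA and -0.54 for nuclear IP over total RNA, compared with 0.0, -0.11 and -0.18. It stood at 0.48 and 0.20 between ob/ob and HFD in nuclear and cytoplasmic IP, 0.13 between HFD and WT in total RNA, 0.12 between ob/ob and WT in cytoplasmic IP, 0.11 for nuclear over cytoplasmic IP and -0.40 in the HFD interaction. The cause of these shifts was not tested.

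Replicate numbers were not taken to pair samples. Deviations of same-numbered units correlated at 0.47 to 0.536 across kinds of RNA in WT and 0.391 to 0.419 in ob/ob, but at 0.197, -0.148 and -0.119 in HFD. Between mouse groups within 1 kind of RNA they correlated at -0.263 to 0.229. In fits within total RNA or 1 extract, the block joined units of different mouse groups by number alone. Calls gained there rest on a pairing that the labels do not state. With the number as a replicate block the counts were 19 (cytoplasmic IP, HFD over WT), 211 (cytoplasmic IP, ob/ob over HFD), 140 (nuclear IP, HFD over WT), 63 (total RNA, ob/ob over WT), 33 (total RNA, ob/ob over HFD) and 4 and 2 in the HFD and ob/ob interactions. The block gained 4 calls among the 9 clusters and lost none: uc007hzh.2 in cytoplasmic IP for HFD over WT (edgeR adjusted p = 0.011) and ob/ob over WT (0.030), uc009dgb.1 in nuclear IP for HFD over WT (0.047) and uc009kzk.2 for nuclear over cytoplasmic IP (0.016).

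Depth limited uc007eee.1, which had 1 to 16 reads in nuclear IP libraries, and the cytoplasmic IgG library, where 3 counts equal 6.51 CPM. Nuclear IP reads were also few for uc009cqh.2 (3 to 25), for uc009kzk.2 (4 to 23) and, in the obese groups, for uc008pfv.1 (4 to 18). CPM by library size only moved 21 of 27 group means of the 9 clusters in total RNA by more than 1 SD, and uc007reo.2's log2 fold changes to 0.99 in HFD and -0.41 in ob/ob.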

Other observations

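Outside the rule for named clusters, 2 clusters standing 2 numbers from one of the 9 were singled out after their values were seen. Cluster uc009ghd.2 (437 nt), 2 below uc009ghf.1, had 74.7 and 84.7 CPM in ob/ob total RNA, 13.6 and 16.4 CPM in HFD and 49.3 and 138 CPM in WT. It was low in HFD alone, with log2 fold changes over WT of -0.15 in ob/ob and -2.59 in HFD. Cluster uc007hzg.1 (9959 nt), 2 below uc007hzh.2, had 2.14 and 2.52 CPM in ob/ob total RNA, 0.198 and 0.336 CPM in HFD and 0.866 and 5.99 CPM in WT. It too was lowest in HFD, and its ob/ob units lay between the WT units.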
